A study of Mus musculus with 6 samples.

Results

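The 10 genes described here, Peg3, Ndn, Snrpn, Nnat, Gnas, Impact, Zrsr1, Nap1l5, Plagl1 and Sgce, are imprinted genes expressed in brain that lie outside the Dlk1-Dio3 cluster. They were taken by gene symbol, and all 10 were found among the 24537 genes measured. RNA-seq measured cerebellum of males aged 6 weeks in 6 libraries, 3 of mice heterozygous for a Reln null allele (HET, labelled strain Orl/BalbC) and 3 of wild-type mice (WT, labelled strain C57BL/6). Strain label and genotype change together, so their parts in a difference cannot be told apart. Nothing in the labels ties a library to an animal of its own, and p-values then measure only the spread between these libraries, which may be technical.

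In genomic imprinting, DNA methylation laid down in the egg or the sperm marks a control region, and the genes nearby are then transcribed mainly from the copy inherited from one parent. Most of the 10 genes are known in mouse as expressed from the paternal copy; Gnas is a locus with several promoters that are used by the maternal copy, the paternal copy or both. Imprinted genes are known for roles in growth, in neuronal development and in behaviour, and several belong to clusters in which a few genes share a control region. The deposited values add up the RNA of both parental copies, so the allele of origin was not measured.

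The promoters of 4 of the genes are shown because CpG dinucleotides are the sites at which imprints are methylated. In addition, these genes lie inside or beside other transcripts with very different deposited values. Each line is the 250 bases upstream of the annotated start, read 5′ to 3′ on the strand of the gene, from the RefSeq table for GRCm38.p6, the assembly also called mm10, with every CG in capitals.
Peg3, chr7:6730420-6730669, minus strand: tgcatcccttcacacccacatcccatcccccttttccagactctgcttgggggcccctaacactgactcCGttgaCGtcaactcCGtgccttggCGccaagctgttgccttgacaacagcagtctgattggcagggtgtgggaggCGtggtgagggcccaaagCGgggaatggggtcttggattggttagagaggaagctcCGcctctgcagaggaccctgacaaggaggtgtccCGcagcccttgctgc
Nap1l5, chr6:58907127-58907376, minus strand: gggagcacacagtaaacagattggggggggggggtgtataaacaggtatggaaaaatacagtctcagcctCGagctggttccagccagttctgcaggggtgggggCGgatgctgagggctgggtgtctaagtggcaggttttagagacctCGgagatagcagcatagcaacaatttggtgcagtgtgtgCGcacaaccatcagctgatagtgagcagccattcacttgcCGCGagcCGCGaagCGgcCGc
Nnat, chr2:157559828-157560077, plus strand: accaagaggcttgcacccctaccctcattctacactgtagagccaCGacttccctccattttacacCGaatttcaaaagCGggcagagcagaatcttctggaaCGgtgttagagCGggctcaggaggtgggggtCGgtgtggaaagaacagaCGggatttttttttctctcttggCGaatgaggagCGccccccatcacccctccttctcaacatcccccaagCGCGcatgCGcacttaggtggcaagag
Zrsr1, chr11:22971755-22972004, plus strand: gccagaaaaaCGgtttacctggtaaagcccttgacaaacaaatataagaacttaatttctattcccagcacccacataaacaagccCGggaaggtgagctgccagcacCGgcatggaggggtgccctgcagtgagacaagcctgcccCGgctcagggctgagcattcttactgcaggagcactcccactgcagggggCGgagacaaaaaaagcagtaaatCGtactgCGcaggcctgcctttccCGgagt
The Peg3 window held 8 CpG, that of Nap1l5 10, that of Nnat 12 and that of Zrsr1 8, against a median of 6 over 32851 windows of this length. In all, 8 of the 10 genes matched the table, with 14 windows between them. The counts ran from 2 in a Snrpn window to 29 in a Gnas window. The motif TGCCGC of ZFP57, a zinc finger protein that binds imprinting control regions, was searched on both strands. It occurred in the windows of Nap1l5 and Plagl1, 2 of the 14 and 2 of the 8 genes, against 8.68% of all windows. Snrpn and Gnas have several windows each, and Gnas windows that start at 174327499 and 174327518 overlap, so the 14 are not independent. Whether any window lies in an imprinting control region was not checked. The YY1 motif CCATNTT, searched in the same way, occurred in the window of Nnat, against 12.4% of all windows, and no window of the 14 held both motifs.

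Levels of the 10 genes spanned a wide range, given here as FPKM, fragments per kilobase of length scaled to the size of the library. Which length entered for each gene was not checked, so ranks between genes may depend on it. Ndn and Zrsr1 have 1 exon, and Nap1l5 has 1 to 2. Nap1l5 had the highest mean FPKM, above 99.65% of the 6358 genes whose mean reached 1 FPKM, and Ndn lay above 99.0% of them. In descending order of their mean over the 6 libraries followed Nnat, Zrsr1, Gnas, Peg3, Impact, Snrpn, Sgce and Plagl1. The 6 libraries of Nap1l5 did not overlap with those of Ndn, nor those of Ndn with those of Nnat. The ranges overlapped between Nnat and Zrsr1, between Gnas and Peg3, and between Peg3 and Impact. Within a library Gnas lay above Peg3 in all 6, while Zrsr1 lay above Nnat in WT replicate 2 and Impact above Peg3 in HET replicate 2. Zrsr1 and Gnas, Impact and Snrpn, Snrpn and Sgce, and Sgce and Plagl1 did not overlap. Plagl1 and Sgce lay under the minimum of 1 FPKM for the test over all genes, and the other 8 passed it.

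**Figure D1:**
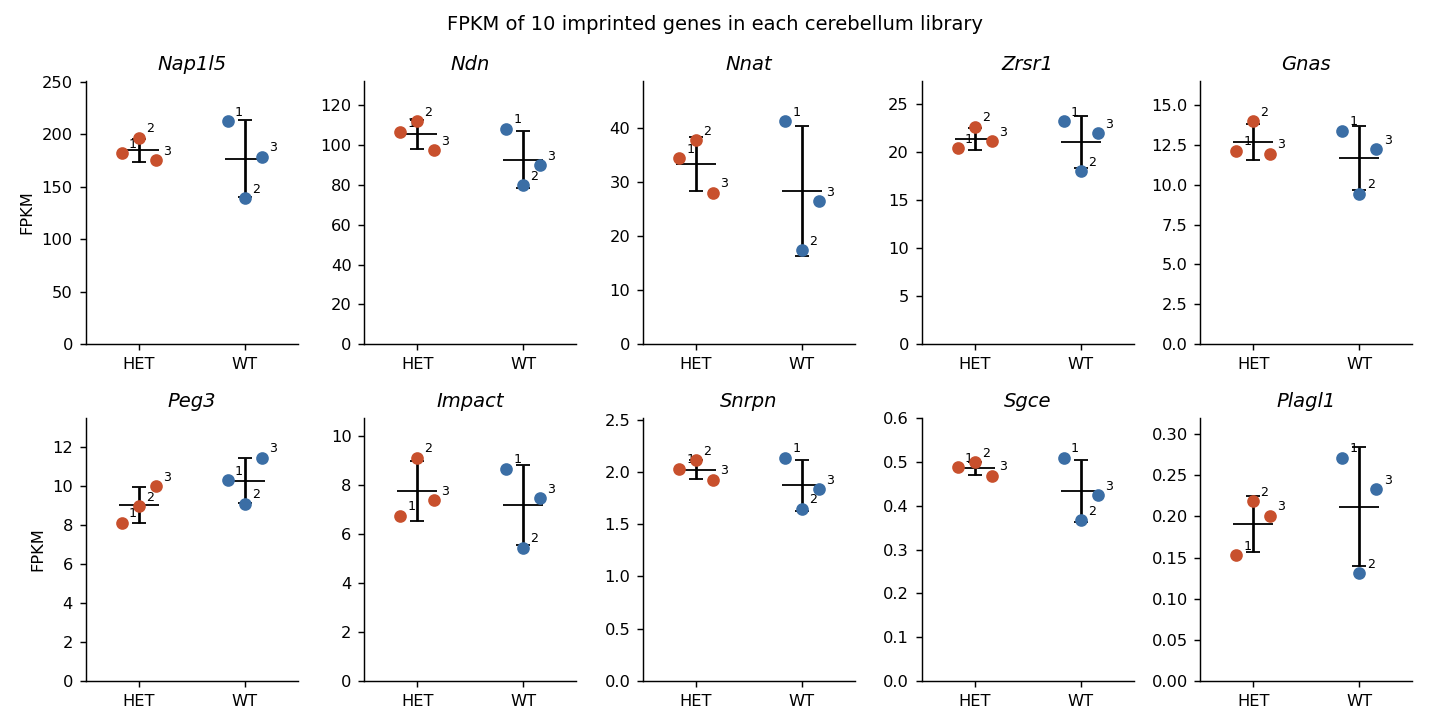
FPKM of each gene (y axis, from 0) in the 3 HET and the 3 WT libraries (x axis), with points numbered by replicate, the mean as a horizontal line and the SD as a bar. In every panel the groups overlap, and WT replicate 2 is the lowest point for 9 of the 10 genes.

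No gene of the 10 passed the test between HET and WT. The test was limma on log2(FPKM + 1) with Benjamini-Hochberg adjustment over 6358 genes at an adjusted p of 0.05; it called 5 genes, or 0.0786%, and 0 of the 8 members in it. By direction it called 0.0157% of genes higher and 0.0629% lower in HET. The lowest adjusted p among the 8 was 0.90 in limma, and 0 of them had an unadjusted p under 0.05, as 3.33% of all tested genes did. With FPKM as deposited the groups overlapped for all 10 genes, while they did not for 5.55% of the genes tested, 4.81% with HET higher and 0.739% with HET lower. Of the 8, 7 had a higher mean in HET libraries and 1, Peg3, a lower mean, against 83.1% higher and 16.9% lower over all genes. After median-of-ratios scaling, which sets the median gene equal between libraries, 57.1% of all genes had a higher and 42.9% a lower mean, and 3 of the 8, Peg3, Zrsr1 and Nap1l5, had a lower one. With FPKM as deposited the median difference in mean log2(FPKM + 1) was 0.095, HET minus WT, for the 8 and 0.083 for all tested genes; after scaling it was 0.01 for all tested genes.

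The zinc finger genes come first. Peg3 (ENSMUSG00000002265, chromosome 7, 6703892 to 6730431, minus strand, mm10) encodes a large zinc finger protein known for effects on maternal behaviour and growth in mice. It stood at 8.11, 8.96 and 9.97 FPKM in HET replicates 1, 2 and 3, and at 10.3, 9.09 and 11.4 FPKM in WT replicates 1, 2 and 3. HET replicate 1 was lowest and WT replicate 3 highest, and WT replicate 2 lay between HET replicates 2 and 3. The means were 9.01 ± 0.93 FPKM in HET and 10.3 ± 1.2 FPKM in WT (SD, n = 3 each). The log2 difference was -0.17 (95% interval -0.47 to 0.13, limma adjusted p = 0.90). After median-of-ratios scaling it was -0.26 (95% interval -0.50 to -0.02), with an unadjusted p of 0.037 and a limma adjusted p of 0.76. Plagl1 (ENSMUSG00000019817, chromosome 10, 13060504 to 13131694, plus strand) encodes a zinc finger transcription factor that can arrest the cell cycle. Its values were 0.153, 0.218 and 0.201 FPKM in HET replicates 1 to 3, and 0.271, 0.131 and 0.233 FPKM in WT replicates 1 to 3. The lowest and the highest value both fell in WT, and a two-sided exact permutation test gave p = 0.7. Taking its longest transcript, a library held roughly 19 to 41 reads of the gene, a counting error of 15.7% to 23.2%.

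Ndn and Snrpn lie in the region of chromosome 7 that corresponds to the human Prader-Willi region. Ndn (ENSMUSG00000033585, 62346569 to 62350262, plus strand) is an intronless gene for necdin, a MAGE family protein of postmitotic neurons. Its level was 107, 112 and 97.5 FPKM in HET replicates 1, 2 and 3, and 108, 79.85 and 90.05 FPKM in WT replicates 1, 2 and 3. All HET values exceeded WT replicates 2 and 3, but WT replicate 1 lay within the HET range. The means were 105 ± 7 FPKM in HET and 92.7 ± 14.4 FPKM in WT (SD, n = 3 each). The log2 difference was 0.19 (95% interval -0.18 to 0.56, limma adjusted p = 0.90). Snrpn (ENSMUSG00000102252, 59982495 to 60140219, minus strand) encodes SmN, a neuronal form of a core protein of spliceosomal small nuclear RNPs. It stood at 2.03, 2.11 and 1.93 FPKM in HET and at 2.14, 1.65 and 1.84 FPKM in WT, in the order of replicates 1, 2 and 3. The groups overlapped through WT replicate 1, and the log2 difference was 0.08 (95% interval -0.14 to 0.29).

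Snrpn shares its transcript with Snurf, a short upstream reading frame listed as a gene of its own. Snurf averaged 12.3 ± 0.7 FPKM in HET and 11.4 ± 1.3 FPKM in WT (SD, n = 3 each). The ratio of Snurf to Snrpn was nearly the same in every library, from 6.00 to 6.22. Of the exon bases of Snrpn, 27.3% lie in exons of other genes on the same strand, and all those of Snurf do. Reads from shared bases cannot be assigned to 1 row, so the levels of Snurf and Snrpn are uncertain.

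Nap1l5, Zrsr1 and Nnat each lie within the span of another gene on the opposite strand. Nap1l5 (ENSMUSG00000055430, chromosome 6, 58905233 to 58907076, minus strand) is a retrogene of the nucleosome assembly protein family within Herc3. It stood at 182, 197 and 175 FPKM in HET replicates 1, 2 and 3, and at 212, 139 and 179 FPKM in WT replicates 1, 2 and 3. The WT libraries held both the highest and the lowest value. The means were 185 ± 11 FPKM in HET and 177 ± 37 FPKM in WT (SD, n = 3 each), and the log2 difference was 0.08 (95% interval -0.30 to 0.46). After scaling the estimate was -0.01. Zrsr1 (ENSMUSG00000044068, chromosome 11, 22972005 to 22976496, plus strand), a retrogene related to the small subunit of the splicing factor U2AF, lies within Commd1. Its values were 20.4, 22.6 and 21.1 FPKM in HET and 23.2, 17.96 and 21.9 FPKM in WT, in the order of replicates 1 to 3. All HET values lay between WT replicate 2 and WT replicate 1. The log2 difference was 0.03 (95% interval -0.30 to 0.35). After median-of-ratios scaling it was -0.07 (limma adjusted p = 0.785). Zrsr1 then stood at 20.5, 19.99 and 21.34 scaled FPKM in HET replicates 1 to 3 and at 21.36, 21.49 and 22.01 scaled FPKM in WT replicates 1 to 3, with no overlap. On that scale the groups did not overlap for 11.2% of all tested genes, and for 3.86% with HET lower.

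Nnat (ENSMUSG00000067786, chromosome 2, 157560078 to 157562522, plus strand) encodes neuronatin, a small membrane protein of the endoplasmic reticulum, and lies within Blcap. It varied more between libraries than any other of the 10. Nnat stood at 34.5, 37.8 and 28.0 FPKM in HET replicates 1, 2 and 3, and at 41.3, 17.4 and 26.45 FPKM in WT replicates 1, 2 and 3. WT replicate 1 was the highest of all and WT replicates 2 and 3 the lowest. Its coefficient of variation over the 6 libraries was 28.1%, more than in 97.2% of the tested genes. The means were 33.45 ± 4.97 FPKM in HET and 28.4 ± 12.1 FPKM in WT (SD, n = 3 each). The log2 difference was 0.30 (95% interval -0.08 to 0.68, limma adjusted p = 0.90, exact permutation p = 0.6). Single WT libraries set this value. Without WT replicate 1 the difference was 0.60 and passed the test (limma adjusted p = 0.020). In that setting 62 of 6309 genes were called, 90.6% had a higher mean in HET, and the median difference was 0.15. There limma took the spread from the trend over all genes, and the spread of Nnat's own libraries had no weight. Without WT replicate 2 the difference was 0.0049 (limma adjusted p = 0.999), and without both HET replicate 2 and WT replicate 2 it was -0.09.

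Gnas, Impact and Sgce encode signalling and membrane proteins. Gnas (ENSMUSG00000027523, chromosome 2, 174284320 to 174346744, plus strand) encodes the stimulatory G protein subunit that couples receptors to adenylyl cyclase, and other products from upstream promoters. It stood at 12.1, 13.98 and 11.9 FPKM in HET replicates 1, 2 and 3, and at 13.4, 9.44 and 12.2 FPKM in WT replicates 1, 2 and 3. WT replicate 2 lay below all other libraries, and the log2 difference was 0.12 (95% interval -0.19 to 0.43). The annotation holds 24 transcripts of Gnas, and 21.96% of its exon bases lie opposite exons of other genes; the strand setting of the quantification is not given in the sources used here. Impact (ENSMUSG00000024423, chromosome 18, 12955852 to 12992950, plus strand) encodes a protein that binds GCN1 and restrains the kinase GCN2. Its values were 6.75, 9.12 and 7.38 FPKM in HET and 8.67, 5.44 and 7.46 FPKM in WT, in the order of replicates 1 to 3. Replicate 2 was the highest library of HET and the lowest of WT, and the log2 difference was 0.11 (95% interval -0.19 to 0.41).

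Sgce (ENSMUSG00000004631, chromosome 6, 4674350 to 4747207, minus strand) encodes epsilon-sarcoglycan, whose loss from the paternal copy causes myoclonus-dystonia in humans. It stood at 0.488, 0.500 and 0.470 FPKM in HET replicates 1, 2 and 3, and at 0.510, 0.367 and 0.425 FPKM in WT replicates 1, 2 and 3. WT replicates 2 and 3 lay under every HET library and WT replicate 1 above them. The means were 0.486 ± 0.016 FPKM in HET and 0.434 ± 0.072 FPKM in WT (SD, n = 3 each, two-sided exact permutation p = 0.4). With 3 libraries against 3 such a test cannot go below 0.1. Taking the longest transcript, roughly 44 to 64 reads per library stood behind these values, a counting error of 12.5% to 15.1%. As deposited the coefficient of variation of Sgce was 3.20% in HET and 16.5% in WT. Over all 6 libraries after median-of-ratios scaling it was 5.52%. That is smaller than the counting error, so these read numbers may be too low.

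**Figure D2:**
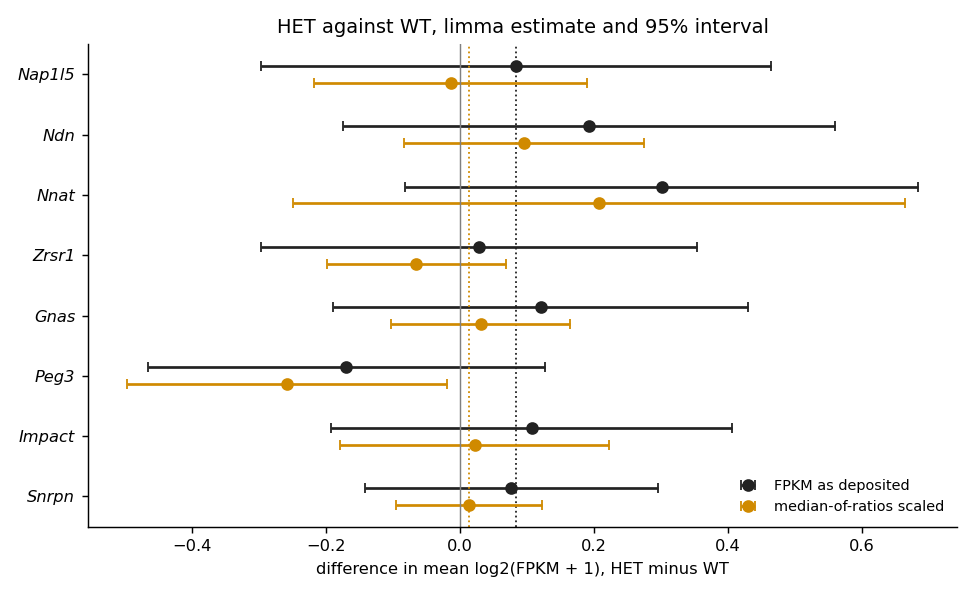
Difference in mean log2(FPKM + 1), HET minus WT (x axis), for the 8 genes in the test (y axis), with 95% intervals from limma, for FPKM as deposited and after median-of-ratios scaling; dotted lines mark the median of all tested genes on each scale. With deposited FPKM all 8 intervals include 0, and Peg3 alone has an estimate below 0; after scaling the interval of Peg3 runs from -0.50 to -0.02, and the estimates of Nap1l5 and Zrsr1 are also below 0.

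On the log2(FPKM + 1) scale the lower ends ran from a ratio of 0.724 for Peg3 to 0.944 for Nnat, and the upper ends from 1.09 for Peg3 to 1.61 for Nnat. The intervals include differences of these sizes as well as 0, and the p-values do not show that the groups were alike.

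Most of the 10 genes were lowest in the same library as most tested genes, but were not highest in the same one. WT replicate 2 was the lowest library for 9 of the 10, the exception being Peg3, near the 78.4% of all tested genes for which it was lowest. WT replicate 1 was the highest for 6 of the 10, against 24.9% of all tested genes, and HET replicate 2 for 3 of the 10, against 56.3%. The size factors of median-of-ratios scaling were 0.992, 1.13 and 0.988 in HET replicates 1, 2 and 3, and 1.09, 0.836 and 0.995 in WT replicates 1, 2 and 3. After that scaling WT replicate 2 was the lowest for 4 of the 10, against 16.5% of all tested genes. The coefficient of variation over the 6 libraries was then 3.34% for Gnas, 3.45% for Zrsr1 and 3.87% for Snrpn, against 12.8%, 8.86% and 9.46% before. For Nnat it was 20.7% after scaling, and for Peg3 14.8% after and 12.2% before. The 3.87% of Snrpn is smaller than its counting error of 8.91% to 10.4%, taking its longest transcript, so its estimated reads may be too low.

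The genes closest to the mean course of the 8 tested members were Tax1bp3, Myl12b, Cap1, Ckmt1 and Enpp5. Closeness was the root mean square difference between profiles of log2(FPKM + 1) over the 6 libraries, each centred on its mean, and ran from 0.013 for Tax1bp3 to 0.018 for Enpp5. Among the members themselves it was smallest for Gnas, at 0.029, and Nap1l5, at 0.033, and largest for Peg3, at 0.20, and Nnat, at 0.24. None of these 5 genes is among the imprinted genes listed for this comparison.

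**Figure D3:**
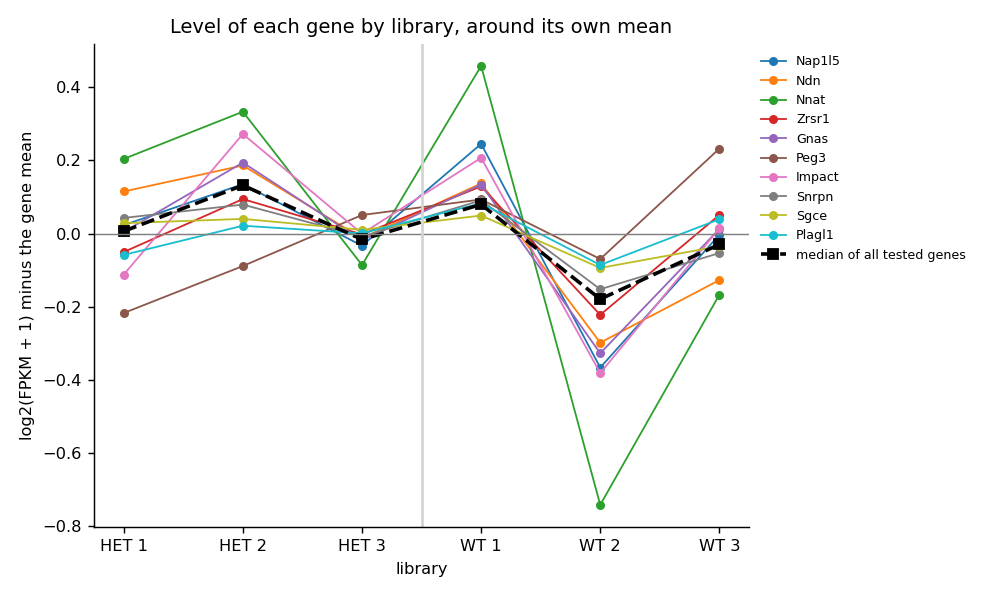
log2(FPKM + 1) of each gene minus its own mean over the 6 libraries (y axis) in each library (x axis), with the median of all tested genes as a dashed black line; lines join the values of a gene and stand for no order among replicates. Most genes share the dip of the dashed line in WT replicate 2. The dashed line is highest in HET replicate 2, while 6 of the 10 genes are highest in WT replicate 1. Nnat swings from 0.46 in WT replicate 1 to -0.74 in WT replicate 2, and Peg3 is highest in WT replicate 3.

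The members were next set beside the genes that hold or adjoin them. Nap1l5 stood at 92.3 ± 5.8 times the FPKM of its host Herc3, a ubiquitin ligase gene, in HET and at 93.8 ± 8.9 times in WT (SD, n = 3 each). Zrsr1 stood at 123 ± 14 times the FPKM of Commd1, a copper metabolism gene, in HET and at 150 ± 10 times in WT. Nnat was 4.71 ± 0.29 times Blcap in HET and 4.37 ± 1.30 times in WT. Peg3 was 54.7 ± 2.1 times Usp29, a deubiquitinase gene read in the other direction from the same promoter region, in HET and 67.6 ± 4.0 times in WT. Usp29 and Commd1 were low in every library, at 0.21 FPKM or less. How far these ratios reflect the gene lengths used in the FPKM was not tested. Zrsr1 has 1 exon, while Commd1 runs from 22896136 to 22982382 on chromosome 11. The size of a ratio is therefore no measure of transcript numbers, and only its HET and WT values are compared here. Of 11 such ratios to hosts, neighbours and paralogs, 3 did not overlap between the groups, those of Zrsr1 to Commd1, of Peg3 to Usp29 and of Snrpb to Snrpn. In each the exact permutation test, two-sided, gave p = 0.1, its smallest value, and 0.37 after Benjamini-Hochberg adjustment over the 11. The groups did not overlap for 5.55% of single genes as deposited and for 11.2% after scaling; the share over other ratios of genes was not computed, so the 3 of 11 have no background of their own kind. Peg10, a retrotransposon-derived gene that starts beside Sgce on the other strand, stood at 1.96 ± 0.45 FPKM in HET and 1.70 ± 0.32 FPKM in WT (SD, n = 3 each). Of 9 hosts and neighbours, 5 were tested. All 5 had a higher mean in HET libraries, with a median of 0.10, from 0.04 for Casd1 and 0.07 for Herc3 to 0.13 for Peg10 and 0.14 for Blcap, and none passed the test.

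**Figure D4:**
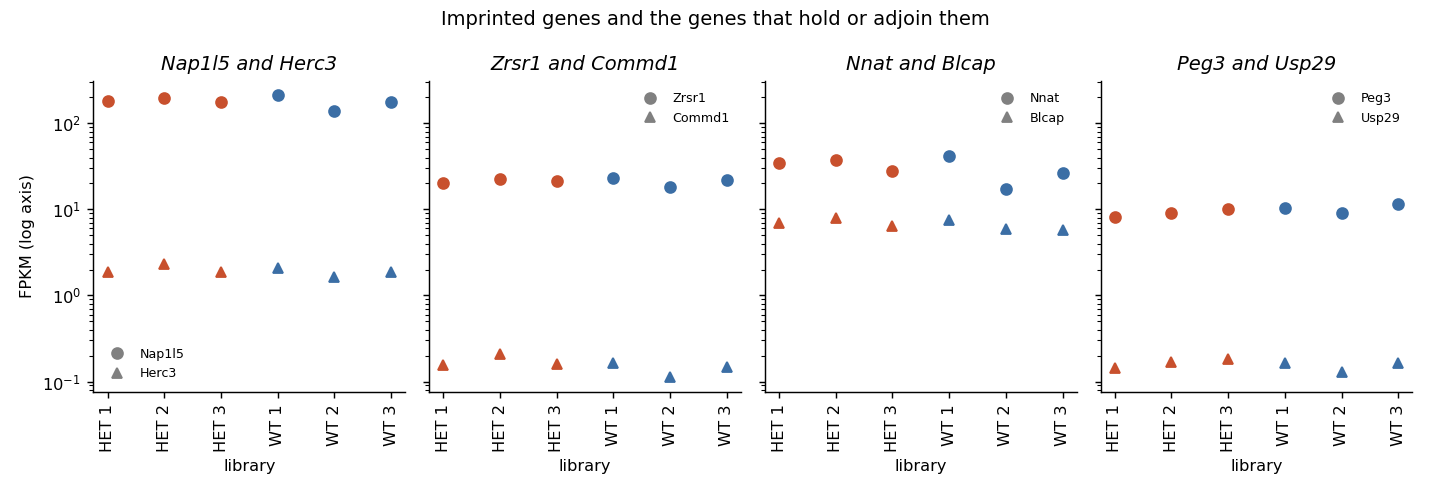
FPKM on a log axis (y axis) of 3 members and their hosts and of Peg3 and its neighbour Usp29, in each library (x axis), HET in red and WT in blue, circles for the member and triangles for the other gene. The member lies above the other gene in all 6 libraries of each panel, by the widest margin for Zrsr1 and Commd1.

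Among paralogs, Snrpb, which encodes the ubiquitous counterpart of SmN, had the largest difference. It stood at 6.71, 9.004 and 6.57 FPKM in HET replicates 1, 2 and 3, and at 5.88, 5.07 and 5.21 FPKM in WT replicates 1, 2 and 3. Every HET library lay above every WT library, and the log2 difference of 0.39 (SE 0.14) did not pass the test (limma adjusted p = 0.90). Of 10 tested genes of the Sm core and of proteins of the U1 and U2 particles, 8 lay higher and 2 lower in HET by their means, with a median of 0.10 and none past the test. Snrpd2, at 0.33, followed Snrpb at the upper end, and Snrnp70, at -0.34, and Snrpf, at -0.02, stood at the lower end. All 6 tested paralogs of members had a higher mean in HET, with a median of 0.13. Maged1, a MAGE family gene related to Ndn, followed Snrpb at 0.16, and Nap1l1, at 0.08, and Nap1l3, at 0.02, had the smallest differences. The nucleosome assembly genes Nap1l2 and Nap1l3 stood at 38.7 ± 2.8 and 17.8 ± 0.5 FPKM in HET and at 36.3 ± 6.6 and 17.6 ± 2.4 FPKM in WT (SD, n = 3 each).

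Partners of the other members gave the same count of 0 calls. Of 9 tested genes of the Gs and cyclic AMP pathway, all had a higher mean in HET, with a median of 0.09, led by the G protein subunit genes Gnb2, at 0.29, and Gng3, at 0.19. Adcy1, a calcium-stimulated adenylyl cyclase, and Creb1, a cyclic AMP responsive transcription factor, had the smallest differences, 0.03 each. The 8 tested genes of the GCN2 arm had a median of 0.12 and all a higher mean in HET. Ddit3, a stress-induced transcription factor, was at 0.41 (limma adjusted p = 0.57) and the asparagine synthetase gene Asns at 0.19, while Gcn1l1, the partner of Impact, was at 0.0023 and Ppp1r15a, a phosphatase subunit gene, at 0.01. Of the dystrophin and sarcoglycan genes, 2 of 14 passed the minimum, the beta-sarcoglycan gene Sgcb, at 0.08, and the dystroglycan gene Dag1, at 0.03. These values compare with a median of 0.083 and a share of 83.1% higher over all tested genes.

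Other imprinted genes outside Dlk1-Dio3 were counted from a list of 39, of which 14 passed the minimum for testing. Of these, 9 lay higher and 5 lower in HET by their means, with a median of 0.03, and 0 passed the test. The 39 were listed by the parental copy known to express them in mouse, which was not measured here and may differ between tissues. Among those listed as paternally expressed, the noncoding RNA Peg13 was the most abundant, at 61.3 ± 3.3 FPKM in HET and 60.9 ± 11.1 FPKM in WT (SD, n = 3 each). Peg10, at 0.13, and Snurf, at 0.10, had the largest differences there, and Kcnq1ot1, at -0.29, and Igf2, at -0.03, the lowest. Kcnq1ot1, a nuclear antisense RNA, stood at 1.011, 0.574 and 0.756 FPKM in HET replicates 1 to 3 and at 0.598, 1.85 and 1.23 FPKM in WT replicates 1 to 3, so WT replicate 2 was its highest library. It belongs to a list of 7 nuclear noncoding RNAs, of which 5 were tested. All 5 had a lower mean in HET, with a median of -0.53, against 16.9% of all tested genes, and none passed the test. WT replicate 2 was the highest library for all of the 7 except Rian. Malat1, at -0.65 (limma adjusted p = 0.52), and Meg3, at -0.65 (limma adjusted p = 0.090), were lowest in this list, and Rian, at -0.02, was nearest to 0. Adding 1 to FPKM shrinks the log2 difference of low genes such as Kcnq1ot1. As ratios of mean FPKM, HET over WT, Kcnq1ot1 was at 0.636, Malat1 at 0.631 and Meg3 at 0.601. The part of the course of this list in the level of Kcnq1ot1 was not tested. Among those listed as maternally expressed, Blcap, at 0.14, and the sialic acid acetyltransferase gene Casd1, at 0.04, were at the upper end. Cdkn1c, a cell cycle inhibitor, at -0.24, and the signal peptide peptidase gene H13, at -0.02, were at the lower end. In 13 of the 39, values were under 0.1 FPKM in every library.

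Igf2, a growth factor gene, and Cdkn1c were highest in the libraries with the most RNA of choroid plexus. Cdkn1c stood at 2.41, 3.09 and 2.06 FPKM in HET replicates 1, 2 and 3, and at 5.28, 1.78 and 3.05 FPKM in WT replicates 1, 2 and 3. Igf2 stood at 3.68, 5.24 and 3.41 FPKM in HET and at 6.99, 1.95 and 4.87 FPKM in WT, in the same order. For both, HET replicate 2 and WT replicates 1 and 3 were the 3 highest libraries. So it was for 7 of the 8 choroid plexus markers, whose summed level ran from 4.46 to 165 FPKM in HET and from 1.32 to 289 FPKM in WT. These 3 libraries were set as those with the most Ttr, which is itself among the 8 and so counts by definition. In WT replicate 1 Ttr held 273 of the 289 FPKM. With FPKM as deposited the same 3 libraries were highest for 4 of the 10 members, Gnas, Impact, Zrsr1 and Plagl1, against 19% of all tested genes. After median-of-ratios scaling the same 3 libraries were highest for Igf2, for Cdkn1c and for 2 of the 10 members, Gnas and Impact, against 4.15% of all tested genes, and not for Nnat. Gnas then stood at 12.27 scaled FPKM in WT replicate 3 against 12.24 in HET replicate 1. Impact stood at 7.495 in WT replicate 3 against 7.47 in HET replicate 3. With such small gaps the place of these 2 members in the count is uncertain. The 6 markers of meninges summed to 3.97, 5.21 and 3.375 FPKM in HET replicates 1 to 3 and to 5.02, 2.47 and 3.90 FPKM in WT replicates 1 to 3. Their sum was also highest in HET replicate 2 and WT replicate 1, but HET replicate 1 lay above WT replicate 3. The part of choroid plexus or meningeal RNA in the levels of the imprinted genes was not tested. In whole tissue more cells of a type and more RNA per cell cannot be told apart.

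**Figure D5:**
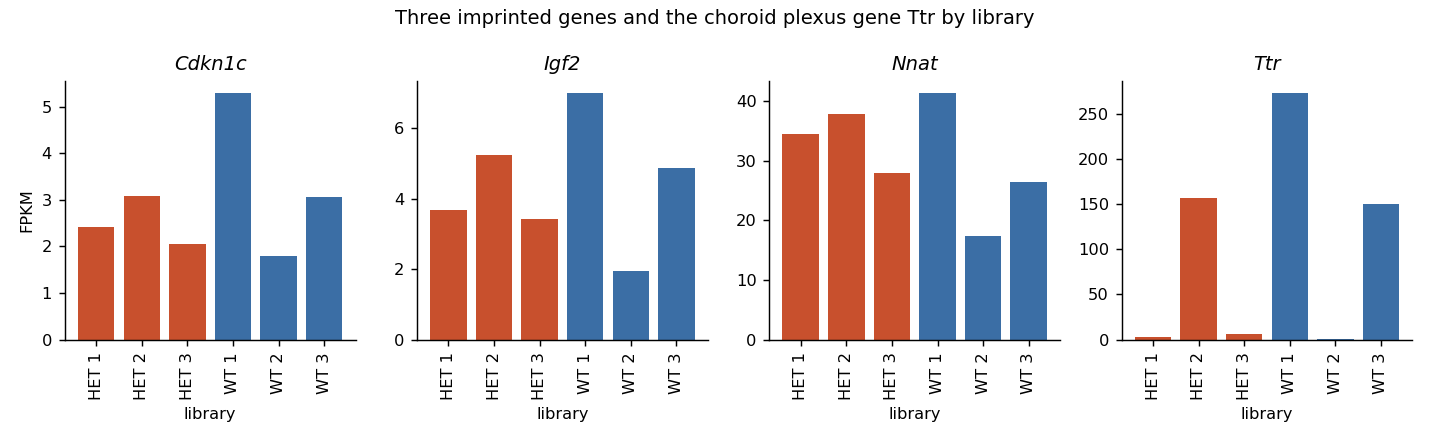
FPKM (y axis, from 0) of Cdkn1c, Igf2, Nnat and the choroid plexus gene Ttr in each library (x axis), HET in red and WT in blue. Cdkn1c, Igf2 and Ttr share their 3 highest libraries, HET replicate 2 and WT replicates 1 and 3, while Nnat is higher in HET replicates 1 and 3 than in WT replicate 3.

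Facts of the whole series bear on these values in a few points. Reln, which encodes the secreted protein reelin, at 0.540 ± 0.037 FPKM in HET and 0.848 ± 0.086 FPKM in WT (SD, n = 3 each), was lower in all HET libraries (exact permutation p = 0.1, the smallest possible), in the direction of the genotype labels. Depth, read from the steps between low values, was about 22900000 to 27100000 reads in HET and 26900000 to 28600000 reads in WT. The granule cell markers summed to 469 to 505 FPKM in HET and 436 to 518 FPKM in WT, and those of Purkinje cells to 317 to 332 FPKM in HET and 244 to 332 FPKM in WT. Astrocyte markers summed to 438 to 497 FPKM in HET and 335 to 486 FPKM in WT, and oligodendrocyte markers to 184 to 247 FPKM in HET and 140 to 221 FPKM in WT, and WT replicate 2 had the lowest sum for every cell type list examined. The part of these cell types in the members' levels was not tested. Of 8 forebrain and hypothalamus markers, 7 were under 1 FPKM in every library and Neurod6 reached 1.08 FPKM in WT replicate 1.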

How the data were processed

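Total RNA of mouse cerebellum was made into libraries with a stranded total RNA kit and sequenced as single-end reads, per the labels' protocols. The deposited values are FPKM, 1 library per file; the authors filtered out mitochondrial and ribosomal sequences, trimmed 2 bases, aligned to mm10 with TopHat2 and Bowtie 1 and quantified with Cufflinks, per the labels' protocols. The sources used here give neither the annotation release nor the strand setting, and the gene lengths behind the FPKM were not checked. Since FPKM is relative to the library, RNAs that take more of the reads lower all others. In HET replicate 2, 40 values read as spreadsheet dates, and those genes were left out of tests; no member was among them.

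Groups and replicate numbers came from the sample titles. Where the mean FPKM was 1 or more, log2(FPKM + 1) was tested, HET minus WT, with an intensity trend in limma 3.58.1 (R 4.3.3). The 1 added to FPKM understates changes of low genes. In the fit of all 6 libraries the trend over all genes held 54.4 degrees of freedom, against 4 from a gene's own libraries. Members under the minimum were compared by exact permutation. Gene coordinates are those of GENCODE M21 (mm10). Depth came from steps between low values and GENCODE M21 lengths of single-transcript genes. Read numbers of members use their longest transcript, are approximate, and would be higher if the FPKM used a greater length. Their errors cover counting only. Alternatives were another pseudocount, no minimum, median-of-ratios scaling, a replicate block and leaving out libraries. The members and lists were chosen with earlier results of these data known. Named genes were the 10 members, Reln, the 2 highest and 2 lowest of each list and the 5 nearest profiles; Peg13, Nap1l2, Mest, H19, Usp29, Commd1, Ttr and Neurod6 were named after their values were seen. Tables and figures were made in Python 3.11.15 (scipy 1.17.1, pandas 2.3.3, matplotlib 3.10.9, numpy 2.4.6).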

Additional observations from a re-analysis of the deposited data

How the results depend on the processing

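The number of genes called over the whole table depended on the processing, and the 10 imprinted genes changed calls in 1 case. Against 1 gene higher and 4 lower in HET, a pseudocount of 0.1 gave 0 higher, no minimum gave 0 lower, and median-of-ratios scaling gave 0 higher and 0 lower (limma, 337 genes at an unadjusted p under 0.05). Leaving out 1 library gave 0 to 29 higher and 5 to 33 lower, and leaving out HET replicate 2 and WT replicate 2 gave 19 higher and 48 lower. A replicate block gave 3 higher and 10 lower; deviations of same-numbered libraries correlated at -0.281, -0.517 and 0.14, HET replicate 1 correlated best with WT replicate 2, and the libraries share only a number. Of 108 values of the members under alternatives, 15 changed sign and 1 passed the threshold, that of Nnat without WT replicate 1 (0.604). In that setting 62 of 6309 genes passed, and 90.6% had a higher mean in HET. Signs turned under median-of-ratios scaling for Zrsr1 (-0.0656) and Nap1l5 (-0.0143). Without WT replicate 2 they turned for Gnas (-0.0131), Impact (-0.0574), Zrsr1 (-0.0761) and Nap1l5 (-0.0791), and without HET replicate 2 for Impact (-0.00297) and Zrsr1 (-0.0124). Without both they turned for Snrpn (-0.00154), Nnat (-0.0864), Gnas (-0.0801), Impact (-0.167), Zrsr1 (-0.116) and Nap1l5 (-0.126). Leaving out single libraries took Gnas up to 0.217, Impact to 0.237, Zrsr1 to 0.0993 and Nap1l5 to 0.226, each without WT replicate 1. Plagl1 turned without WT replicate 1 (0.0112) and was -0.0898 without HET replicate 2 and WT replicate 2. Peg3, Ndn and Sgce kept their sign in all alternatives run, but single libraries moved their sizes. Against -0.17, Peg3 was -0.104 without HET replicate 1 and -0.097 without WT replicate 3. Ndn, at 0.192, was 0.308 without WT replicate 1 and 0.0908 without WT replicate 2. Without the same libraries Sgce, at 0.0526, was 0.0905 and 0.0189, and Snrpn, at 0.0759, was 0.14 and 0.0191. The cause was not tested. Estimated reads were fewest for Plagl1 and Sgce, with counting errors above 12%. For Sgce and for Snrpn the spread after scaling was smaller than the counting error.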

Other observations

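Of the imprinted genes counted by list, Mest, a paternally expressed hydrolase family gene, lay under the minimum for testing. It stood at 0.601, 0.858 and 0.590 FPKM in HET replicates 1, 2 and 3, and at 0.923, 0.458 and 0.759 FPKM in WT replicates 1, 2 and 3. Its 3 highest libraries were those of Igf2 and Cdkn1c, also after median-of-ratios scaling. H19, the maternally expressed noncoding RNA beside Igf2, stood at 0.715, 0.649 and 0.818 FPKM in HET and at 1.10, 0.555 and 0.882 FPKM in WT, in the same order, and HET replicate 2 was not among its 3 highest libraries. Both were named after their values were seen.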
